A study of Helianthus annuus with 6 samples.

Results

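A set of 171 array probes had a lower signal in sunflower leaf discs carrying HaWRKY10 than in discs carrying a reporter construct. The set was chosen from the measured values. Its members are the probes whose mean log2 signal was lower by 1 unit or more with HaWRKY10, a 2-fold difference, and whose highest HaWRKY10 value lay below the lowest reporter value. They are 171 of 21326 tested probes, which is 0.802%, out of 40232 probes with a value on all 6 arrays. A mean at least 2-fold lower was found for 0.994% of tested probes, and groups without overlap toward lower values, whatever their size, for 9.3%. Every statement on the size of this difference is therefore a description of the choice and carries no test.

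RNA came from discs of Helianthus annuus leaves at the V3 stage, from plants grown at 25 °C with 16 h of light and 8 h of darkness, and was hybridised to single-colour (Cy3) Agilent arrays. In the 3 HaWRKY10 samples, the pBI121 construct had the 35S promoter in front of HaWRKY10. In the 3 pBI121 samples, which served as the control, the same promoter drove the GUS reporter. The replicates are biological according to the design text, which gives the factor as HaHB11; the sample labels give HaWRKY10 and were followed.

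WRKY proteins are a large family of plant transcription factors that bind a short promoter element called the W-box. Members of the family raise some target genes and repress others, and they are best known from defence, senescence and seed germination. The 35S promoter, taken from a plant virus, is active in most plant tissues, and GUS is an enzyme whose activity is easily stained. The discs were transformed transiently, so that a disc can hold cells with and without the construct, and an RNA level is an average over both. In such bulk samples fewer cells of a type and less RNA per cell cannot be told apart.

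The probes are named by the identifiers of the custom array. No source used here pairs them with genes or gives their sequences, so the genes behind the 171 probes, leaf marker genes and the level of HaWRKY10 itself were not analysed here. Levels are log2 signals relative to the 75th percentile of the same array, so that a probe at 0 has the signal of that percentile. Signals of different probes do not compare transcript amounts.

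The arrays were alike in the scanner software's flags, in saturation and in local background. Their 75th percentile intensity, which the scaling takes off, ranged from 201 on pBI121 replicate 3 to 302 on pBI121 replicate 1. Between 21285 and 21753 probes carried the scanner software's flag for a signal well above background on the HaWRKY10 arrays and between 21014 and 21278 on the pBI121 arrays. No probe spot was saturated. The median local background at the 171 probes was 23.5 to 27 intensity units on the HaWRKY10 arrays and 26 to 29 on the pBI121 arrays, within 0.5 units of that at all tested probes on each array.

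The set spanned a wide range of sizes. The median difference, HaWRKY10 minus pBI121, was -1.43 log2 units, with quartiles of -1.76 and -1.16, against a median of 0.0025 over all tested probes. That median corresponds to a signal 2.69-fold lower with HaWRKY10. Of the 171 probes 63 were at least 3-fold lower, 29 at least 4-fold and 3 at least 8-fold. Across the set the median level was -1.63, -1.56 and -2.53 on HaWRKY10 arrays 1 to 3 and -0.27, -0.50 and -0.30 on pBI121 arrays 1 to 3. HaWRKY10 replicate 3 was thus the lowest array of the set, while the pBI121 arrays lay close together.

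The largest difference among probes well above background on all 6 arrays was that of CUST_1040_PI423492394. Its log2 level was -3.53, -2.31 and -4.03 on HaWRKY10 arrays 1 to 3 and 1.03, 0.56 and -0.65 on pBI121 arrays 1 to 3, a mean signal 12.1-fold lower with HaWRKY10. All 3 HaWRKY10 values were low, and the groups were 1.66 log2 units apart at their closest, the widest gap in the set. The next, CUST_8037_PI423492394, was measured at -1.05, -0.89 and -4.22 with HaWRKY10 and at 1.65, 0.58 and 1.17 with pBI121. Here HaWRKY10 replicate 3 stood far below the other HaWRKY10 arrays, so that the 9.11-fold difference of means came to 4.30-fold without it.

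The same shape recurred among the other leading probes. CUST_1330_PI423492394 was at 2.21, 3.14 and 0.60 on the HaWRKY10 arrays and at 4.62, 4.13 and 4.78 on the pBI121 arrays, a mean 5.77-fold lower with HaWRKY10 and 3.57-fold lower without HaWRKY10 replicate 3. CUST_14524_PI423492394 was at -0.74, -0.44 and -2.67 with HaWRKY10, against 1.27, 1.22 and 1.10 with pBI121, where the control arrays differed by little, and its 5.56-fold difference came to 3.44-fold without that array. CUST_9592_PI423492394 was at 1.74, 1.36 and -1.90 with HaWRKY10 and at 3.14, 2.32 and 2.97 with pBI121, 5.33-fold lower and 2.41-fold lower without that array. In each of these 3 probes HaWRKY10 replicate 3 was more than 1 log2 unit below the other HaWRKY10 arrays, and no array crossed between the groups.

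CUST_13006_PI423492394 had log2 levels of -0.13, 0.26 and -2.61 on the HaWRKY10 arrays and 1.97, 1.29 and 1.33 on the pBI121 arrays. CUST_17787_PI423492394 had levels of 0.83, 0.93 and -2.48 with HaWRKY10, against 2.28, 1.58 and 2.18 with pBI121. Both show HaWRKY10 replicates 1 and 2 close together and replicate 3 more than 2 log2 units further down. Without replicate 3 their differences came to 2.75-fold and 2.19-fold, against 5.11-fold and 4.76-fold with all arrays.

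The remaining probes among the 12 largest differences had means 4.82-fold to 5.48-fold lower with HaWRKY10, and 3.49-fold to 3.92-fold lower without HaWRKY10 replicate 3. CUST_13910_PI423492394 was at -2.67, -2.45 and -4.15 on the HaWRKY10 arrays and at -0.30, -0.45 and -1.17 on the pBI121 arrays. CUST_7651_PI423492394 was at 1.20, 1.60 and -0.0008 with HaWRKY10 and at 4.01, 3.71 and 2.40 with pBI121. In both of these, as in CUST_1040_PI423492394, pBI121 replicate 3 was the lowest control array. CUST_32637_PI423492394 likewise had its lowest control value on pBI121 replicate 3, at -2.17, -1.34 and -3.15 with HaWRKY10 and 0.53, 0.98 and -0.90 with pBI121. CUST_6572_PI423492394 was at -2.27, -2.15 and -3.49 with HaWRKY10 and at -0.11, -0.83 and -0.10 with pBI121. CUST_23131_PI423492394 was at -2.23, -1.56 and -3.29 with HaWRKY10, against -0.02, -0.16 and -0.08 with pBI121, where the control arrays lay together. Of the 12 probes with the largest differences, 10 had HaWRKY10 replicate 3 at least 1 log2 unit below both other HaWRKY10 arrays.

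The tightest probe behaved otherwise. CUST_1096_PI423492394 was measured at 0.41, 0.40 and 0.46 on the HaWRKY10 arrays and at 2.09, 1.96 and 1.88 on the pBI121 arrays, a mean of 0.42 ± 0.03 with HaWRKY10 and 1.98 ± 0.11 with pBI121 (SD, n = 3 each). The mean signal was 2.94-fold lower with HaWRKY10, and no array stood apart. In limma's fit across all tested probes it was the 1 member past an adjusted p of 0.05, and 0.00469% of tested probes were called lower in that fit. With the replicate number as a block, or without any 1 array other than pBI121 replicate 3, the count was 0. The members were chosen on this contrast, so nothing is read from that count.

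The gap between the groups, from the highest HaWRKY10 value to the lowest pBI121 value, is part of the member rule. Its median was 0.65 log2 units over the set, and 26 members had a gap of 1 unit or more, a width that makes a probe a member by construction. A wide gap did not always go with a small spread. That of CUST_8037_PI423492394 was 1.48 log2 units, with an SD of 1.87 over the HaWRKY10 arrays. The 6 widest gaps included CUST_17351_PI423492394, at 0.59, 0.86 and -0.61 with HaWRKY10 and 2.75, 2.38 and 2.41 with pBI121, and CUST_7830_PI423492394, at -1.63, -1.40 and -2.55 with HaWRKY10 and 0.16, 0.08 and 0.66 with pBI121. At the other end, 11 members had a gap under 0.1 log2 units, which is less than the median SD between arrays of either group.

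Bright spots belonged to the set as well as dim ones. The 6 members with the highest pBI121 mean all had a mean signal above the 97th percentile of tested probes, and all 6 had the shape with a low HaWRKY10 replicate 3. CUST_11370_PI423492394 was at 7.46, 7.59 and 5.90 on the HaWRKY10 arrays and at 8.64, 8.50 and 8.77 on the pBI121 arrays, a mean of 6.98 ± 0.94 with HaWRKY10 and 8.64 ± 0.14 with pBI121 (SD, n = 3 each), or 3.15-fold lower with HaWRKY10. CUST_41309_PI423492394 was at 6.36, 6.36 and 4.96 with HaWRKY10, against 7.50, 7.44 and 7.62 with pBI121. CUST_32151_PI423492394 was at 5.86, 5.83 and 3.65 with HaWRKY10, against 7.12, 6.59 and 7.10 with pBI121. In all 3 the first 2 HaWRKY10 arrays differed by under 0.2 log2 units from each other, and replicate 3 was lower by more than 1.

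CUST_7701_PI423492394 was at 5.98, 5.94 and 4.38 on the HaWRKY10 arrays and at 7.01, 6.83 and 6.72 on the pBI121 arrays. CUST_34016_PI423492394 was at 5.69, 5.46 and 4.07 with HaWRKY10, against 6.80, 6.22 and 6.78 with pBI121. CUST_31286_PI423492394 was at 5.37, 5.27 and 2.98 with HaWRKY10, against 6.56, 5.88 and 6.40 with pBI121. Their means were 2.67-fold, 2.88-fold and 3.33-fold lower with HaWRKY10, again with replicate 3 below the pair of other HaWRKY10 arrays. Without replicate 3 these means were 1.85-fold, 2.03-fold and 1.94-fold lower, and those of CUST_11370_PI423492394, CUST_41309_PI423492394 and CUST_32151_PI423492394 were 2.17-fold, 2.23-fold and 2.13-fold lower. The dimmest value among these 6 probes was 2090 intensity units, for CUST_31286_PI423492394 on HaWRKY10 replicate 3, against a median local background of at most 29 units. Over the whole set, 68 members (39.8%) were brighter than the median tested probe. Of the 79 probes higher with HaWRKY10 by the mirrored rule, 30 (38%) were.

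The low value of HaWRKY10 replicate 3 recurred across the set. This array was the lowest of its group in 138 of 171 members (80.7%), against 34.1% of all tested probes. It lay at least 1 log2 unit below both other HaWRKY10 arrays in 57 members (33.3%), against 0.689% of all tested probes. HaWRKY10 replicates 1 and 2 stood that low in 0 and 1 members. All these values had a part in the choice of the members. These 57 members had a median difference of -1.80 log2 units with all arrays and of -1.17 without HaWRKY10 replicate 3. The other 114 had medians of -1.30 and -1.17. Of the 57, 45 were well above background on all 6 arrays.

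Without HaWRKY10 replicate 3, the median difference of the set was -1.17 log2 units, a signal 2.25-fold lower with HaWRKY10. Then 129 of the 171 probes still had a mean at least 2-fold lower. The arrays left in this comparison also had a part in the choice of the members. Among the pBI121 arrays, replicates 2 and 3 each lay at least 1 log2 unit below both others in 5 members and above both in 3, and replicate 1 did neither in any member. Over all tested probes pBI121 replicate 3 stood apart in this way most often of the 6 arrays, below both others in 259 probes and above both in 320, against 147 and 83 for HaWRKY10 replicate 3. Within the set, pBI121 replicate 2 was the lowest of its group in 98 members (57.3%, against 33.5% of all tested probes). The median SD over 3 arrays was 0.59 log2 units with HaWRKY10 and 0.32 with pBI121 among the members, against 0.16 and 0.19 over all tested probes. HaWRKY10 replicate 3 had the most probes well above background of the 6 arrays, 21753. Its median local background at the members was 25 units, inside the range of the other arrays. The cause of the low values on HaWRKY10 replicate 3 was not tested.

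Arrays with the same replicate number shared a slide, which allows a difference within each slide. The median over the members was -1.40 log2 units on slide 1, -0.91 on slide 2 and -2.13 on slide 3, against medians of 0.006, 0.016 and -0.0009 over all tested probes. A 2-fold lower signal was reached by 151 members on slide 1, by 71 on slide 2 and by 151 on slide 3. Over all tested probes the shares were 2.03%, 1.63% and 2.52%. All 3 slides had a part in the choice of the members. The difference was largest on slide 3 for 126 members, and smallest on slide 2 for 128. On every slide at once, 50 members were at least 2-fold lower, of 51 tested probes (0.239%) that met this condition. Such a probe meets the fold limit by construction and can fail only by overlap between slides, so nothing is read from 50 of 51.

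To read the difference in arrays that had no part in the choice, probes were chosen by the same rule on 2 slides, among those well above background on 2 or more of the 4 arrays there, and measured on the slide left out. The 224 probes chosen on slides 2 and 3 had a median of -1.15 log2 units on slide 1, and 200 of them (89.3%) were lower with HaWRKY10 there, against 49.4% of all probes tested. The 312 chosen on slides 1 and 3 had a median of -0.52 on slide 2, and 259 (83%) were lower, against 47.9%. The 242 chosen on slides 1 and 2 had a median of -0.83 on slide 3, and 188 (77.7%) were lower, against 50.1%. On each left-out slide most of the chosen probes kept the lower side, against medians of -1.40, -1.48 and -1.28 on the slides that chose them. The chosen probes well above background on all 4 choosing arrays numbered 150, 196 and 158, with medians of -1.26, -0.59 and -1.42 on left-out slides 1 to 3 and of -1.37, -1.46 and -1.23 on the choosing slides. The left-out difference of these brighter probes was therefore smaller on slides 1 and 2 and larger on slide 3.

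The size of the left-out difference varied with the slide. A 2-fold lower signal was found for 136 of 224 probes (60.7%) on slide 1, for 66 of 312 (21.2%) on slide 2 and for 108 of 242 (44.6%) on slide 3, against 2.07%, 1.71% and 2.58% of all probes tested there. On slide 3 the values were spread widely, with quartiles of -2.21 and -0.10. Relative to the pBI121 arrays that took part in the choice, HaWRKY10 replicate 3 had a median of -1.53 on these probes and pBI121 replicate 3 a median of -0.46. For slide 2 the medians were -0.94 and -0.40, and for slide 1 they were -1.16 and 0.11. The left-out pBI121 array was thus itself below the choosing pBI121 arrays on slides 2 and 3. A chosen probe has to be high on the choosing pBI121 arrays, so the choice itself can lower any median taken relative to them. Nothing is read from these medians. Probes share each array, so these shares are counts over probes in 3 pairs of samples.

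Dim probes carried less certain sizes. On all 6 arrays 126 of the 171 members were well above background, a smaller share than the 19712 of 21326 tested probes. The median difference of these 126 members was -1.42 log2 units. In 30 further members 1 or 2 HaWRKY10 arrays were not well above background. A set of 15 members was well above background on all 3 pBI121 arrays and on no HaWRKY10 array, of 19 such probes among all tested. Such a probe passes the filter through the pBI121 arrays alone, where it is high, so nothing is read from 15 of 19. For these 15 the HaWRKY10 signal gives only a bound, which replaces any value under the dimmest flagged probe of the same array by the value of that probe. Values above that level stay as measured, and the bound holds for the processed signal only. The difference was at least 2.04-fold in the median and at least 1.52-fold for the smallest bound. Only 8 of the 15 were at least 2-fold lower at their bound, so the rest are not shown to reach the fold limit. With these 15 at their bound, the median of the set was -1.40.

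The largest of these bounds was that of CUST_8156_PI423492394, at -6.24, -4.29 and -5.47 on the HaWRKY10 arrays and -1.02, -1.24 and -2.89 on the pBI121 arrays, at least 6.60-fold lower with HaWRKY10. CUST_1813_PI423492394, CUST_5365_PI423492394 and CUST_24098_PI423492394 followed with at least 3.77-fold, 2.88-fold and 2.54-fold. On pBI121 arrays 1 to 3 they were at -2.25, -3.04 and -2.20, at -2.49, -2.93 and -3.14, and at -3.42, -3.26 and -2.55, still near the lowest levels that carry the flag, which were -4.31, -4.13 and -4.16. The scanner software's own error estimate had a median of 11.5% of the signal at the least certain spot of each member. It was above 50% for 11 members. The same was not taken over all tested probes, so these values are not read as a trait of the members.

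The difference of a dim member varied with how low signals were treated. With normexp correction and an offset of 50 in place of the processed signal, all 171 members had a lower mean with HaWRKY10, and 76 still met both parts of the rule. Among these were 60 of the 68 members brighter than the median and 16 of the 103 dimmer ones. The median difference was -1.32 for the bright members and -0.56 for the dim ones, against -1.41 and -1.44 from the processed signal. The largest bounds were not kept after normexp. There CUST_8156_PI423492394, CUST_1813_PI423492394, CUST_5365_PI423492394 and CUST_24098_PI423492394 had differences of -1.05, -0.47, -0.39 and -0.19 log2 units. When 50 was added to the processed signal with no change of correction, 79 members met the rule, and the medians were -1.33 for the bright members and -0.74 for the dim ones. The effect of the normexp correction cannot be told apart here from that of its offset.

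Some members had adjacent design numbers. Counting 1 step up and down, the members had 176 tested neighbours, and 14 of these (7.95%) were members, against 0.802% of tested probes. They form 7 adjacent pairs of 13 probes. CUST_22240_PI423492394 and CUST_22241_PI423492394 were 2.77-fold and 3.61-fold lower with HaWRKY10, and both were well above background on all 6 arrays. CUST_13345_PI423492394 was 3.19-fold lower, while its neighbour CUST_13344_PI423492394 was well above background on no HaWRKY10 array and has only a bound of at least 2.26-fold. After normexp the differences of CUST_13345_PI423492394 and CUST_13344_PI423492394 were -1.67 and -0.28 log2 units. A run of 3, CUST_15732_PI423492394, CUST_15733_PI423492394 and CUST_15734_PI423492394, had mean signals at the 16.7th to 19.8th percentile of tested probes, and CUST_15732_PI423492394 and CUST_15734_PI423492394 were not well above background on HaWRKY10 replicate 3. Without that array the 3 probes were 3.36-fold, 2.64-fold and 2.25-fold lower, and after normexp with all arrays their differences were -1.05, -0.64 and -0.64 log2 units. The paired spots lay at least 17 rows apart on the array.

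After each group's mean was removed, the 6 values of both probes in a pair correlated at 0.54 to 0.98 over 6 arrays (7 pairs, median 0.95). The median was 0.53 over the 14528 other pairs of members, with quartiles of 0.05 and 0.83, and 0.067 over 12037 adjacent pairs of tested probes. The pairs share the arrays, and HaWRKY10 replicate 3 contributes to each value. The 162 neighbours that were not members had a median difference of -0.004 log2 units, and 0 of them were 2-fold lower by the means. A non-member can be 2-fold lower only with overlapping groups, as 41 of all tested probes were. Nothing is therefore read from that 0. No source used here says whether adjacent numbers mark the same transcript.

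A small part of the array with its own design identifier, PI422561316, held 3 members among its 52 tested probes (5.77%, against 0.802% of all tested probes). A count of 3 is too small to read as an excess, and this part was picked after its values were seen. CUST_129_PI422561316 was at 2.45, 2.38 and 2.18 on the HaWRKY10 arrays and 3.75, 3.66 and 2.85 on the pBI121 arrays. CUST_314_PI422561316 was at 3.30, 3.66 and 2.91 with HaWRKY10 and 4.85, 4.29 and 4.81 with pBI121. CUST_298_PI422561316 was at -0.25, 0.17 and 0.84 with HaWRKY10 and 1.35, 1.42 and 1.15 with pBI121, and is 1 of 10 members in which replicate 3 was the highest HaWRKY10 array. The median difference over the 52 probes was -0.04, and 32 of them (61.5%) had a lower mean with HaWRKY10, against 49.6% of all tested probes. None of the 50 tested probes spotted several times was a member, a number too small to set against 0.802%.

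The members were spread over the array surface. By 4 equal bands of rows they numbered 46, 45, 42 and 38, or 22.2% to 26.9%, against 23.8% to 26.3% of all tested probes. By 4 equal bands of columns they were 51, 45, 39 and 36, or 29.8%, 26.3%, 22.8% and 21.1%, against 24.1% to 25.5%.

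The limits of the set were close on either side. Just inside lay CUST_10150_PI423492394, CUST_3456_PI423492394 and CUST_14411_PI423492394, with differences of -1.0015, -1.0051 and -1.0114 log2 units. Just outside lay CUST_12196_PI423492394, CUST_23948_PI423492394 and CUST_17317_PI423492394, at -0.998, -0.996 and -0.995. A further 41 probes had a mean at least 2-fold lower but overlapping groups. The largest of these was CUST_15721_PI423492394, at -2.66, -6.19 and -6.72 with HaWRKY10 and -1.31, -2.68 and -2.25 with pBI121, whose lowest pBI121 value minus highest HaWRKY10 value was -0.026 log2 units. CUST_31890_PI423492394 had a difference of -2.31 and a gap of -0.018, with HaWRKY10 at -1.99, -1.58 and -6.73, so that replicate 3 alone was far down. CUST_26259_PI423492394 had a difference of -2.27 and a wider overlap, with a gap of -0.67.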

How the data were processed

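Per the file headers, the authors made the deposited spot intensity values with Agilent Feature Extraction 11.5.1.1 (9.1 in the submitters' processing notes). The processed signal in the deposited files is an intensity after background subtraction and spatial detrending, not scaled between arrays. The authors' deposited log2 table served as an alternative; its normalisation is not stated. Control spots and flagged outlier spots were dropped, the log2 processed signal was averaged per probe, and the 75th percentile of each array was taken off. A probe was tested when it had a value on all 6 arrays and was well above background on 3 or more. Differences were fitted with limma 3.58.1 in R 4.3.3 (lmFit, eBayes, 6 arrays, Benjamini-Hochberg over 21326 probes), tested on simulated data. Counts were made in Python 3.11.15. Precision is limited by the number of arrays.

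The 171 members, and the rule that picks probes to name, were chosen with earlier results of these data known. Named were the 12 largest differences and the 6 widest gaps between groups among probes well above background on all 6 arrays, the 6 with the highest pBI121 mean, the 4 largest bounds, the 3 nearest to the fold limit on either side, the 3 largest differences with overlapping groups, and any member past the limma threshold or spotted more than once (none was). Probes of design set PI422561316 and probes with adjacent design numbers are described as well, chosen after their values were seen.

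Per the file headers, the arrays of a replicate number shared a slide. Across probes, deviations from the mean of the group correlated at 0.17, 0.25 and 0.23 within the 3 numbers. All were over 0.1, so arrays with the same number were treated as pairs for the differences within slides and on left-out slides. The member rule and the main limma fit did not use this pairing. In limma it entered only as the replicate block, an alternative. Over the members alone the correlations were 0.26, -0.05 and -0.007 within replicate numbers 1 to 3. Arrays with different numbers gave -0.31 to 0.23 over the members. Among the members the pairing is therefore not seen for numbers 2 and 3. Alternatives changed the scaling, the background correction, the filter, the flagged spots, the source of the values, the replicate block, the variance model and the arrays included.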

Additional observations from a re-analysis of the deposited data

How the results depend on the processing

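The rule gave 171 probes, 139 under median scaling, 161 under quantile normalisation, 147 in the authors' log2 table, 126 with all 6 arrays well above background and 172 with flagged spots kept. It gave 76 after normexp, 79 with 50 added before the log2, 534 of 40232 without the filter on dim probes, 51 with the replicate block (at least 2-fold lower within each slide) and 165 to 239 when 1 array was left out. Without both arrays of replicate 1, 2 and 3 it gave 220, 287 and 225 probes. Of the 171 members, 76 still met the rule after normexp, 79 with 50 added, 139 under median scaling and 125 to 167 without 1 or both arrays of a replicate number. Their median difference was -1.70 to -0.88 over all these settings. In all cases run the 28 named members kept a lower mean with HaWRKY10, a direction that non-overlapping groups fix when arrays are left out. Their sizes were less stable. Of 472 such comparisons, 25 moved by at least the probe's SD between arrays, pooled over both groups. After normexp, 5 of the 28 had a difference above -1.

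The limma count of lower probes was 1, and 1398 probes were lower at an unadjusted p under 0.05. It was 0 with the replicate block (1656 unadjusted), under median scaling (759), quantile normalisation (1217), no filter on dim probes (2106) and with flagged spots kept (1395). It was 41 after normexp, 3 with 50 added, 3 with a variance trend and robust eBayes, 0 to 3 when 1 array was left out (3 without pBI121 replicate 3, 0 without any other) and 0 without replicate 1, 2 or 3 of both groups. The cause was not tested. Adding 50 and leaving out whole slides were chosen after seeing the data. Low signal over background limits the dim members.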

Other observations

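Among all 21326 tested probes, 147 had HaWRKY10 replicate 3 at least 1 log2 unit below both other HaWRKY10 arrays, a set defined within the HaWRKY10 group and chosen after seeing the data. Of these, 57 (38.8%) were members. On HaWRKY10 replicates 1 and 2 alone, the 147 probes had a median difference from pBI121 of -0.26 log2 units. Of the 147, 93 (63.3%) were lower. The 57 members are lower there by the rule that chose them, so both values are partly fixed by that rule. The choice of the 147 also requires HaWRKY10 replicates 1 and 2 to be the high ones of their group. The corresponding sets for HaWRKY10 replicates 1 and 2 held 66 and 80 probes, with medians of 0.19 and 0.71 on the remaining HaWRKY10 arrays, 31.8% and 13.8% of probes lower, and 0 and 1 members. The 90 non-members in the replicate 3 set had a median of 0.11, with 36 lower. For the pBI121 arrays, single values at least 1 log2 unit below both others were found in 79, 115 and 259 probes for replicates 1 to 3, of which 0, 5 and 5 were members.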
